A study of Mus musculus with 14 samples.

Results

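The coagulation and complement factors were 35 genes chosen by name from the deposited count table, which holds 28022 genes, and all 35 were found in it. Their counts were compared across 14 RNA-seq libraries of 7 conditions, with 2 libraries per condition. The cultured libraries came from mouse embryonic fibroblasts (MEFs, labelled Fib), induced hepatic stem cells in 2D (2D-iHs, labelled 2D-iHepSC), the same cells co-cultured with induced endothelial cells in 2D (2D-iHEs, labelled 2D-iHepSCiEC), liver organoids of iHepSCs alone (iHLOs, labelled 3D-iHA) and liver assembloids of iHepSCs with iECs (iHEAs, labelled 3D-iHEA). The tissue libraries came from adult liver (Adult-Liver, taken from 6-week-old mice according to the methods) and fetal liver (Fetal-Liver, mid-gestation). The strain was C57BL/6J in every label. iHepSCs were converted from MEFs with lentiviral Oct4 and Hnf4α, and these transgenes were therefore shared by all 8 libraries of iHepSC cultures. The iECs were human, made by ETV2 expression in the fibroblast line HF1. 2D-iHEs and iHEAs were therefore mixtures of both species, and a human transcript entered the counts if its reads aligned to the mouse genome. All 4 iHepSC cultures received oncostatin M, and the 3D cultures were spheroids in a hydrogel of type I collagen and Matrigel.

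Hepatocytes make most circulating coagulation and complement proteins. In coagulation, tissue factor on cells outside the blood starts a cascade of vitamin K-dependent proteases that ends with thrombin cutting fibrinogen to fibrin, while protein C, protein S and tissue factor pathway inhibitor restrain it. In complement, the classical, lectin and alternative pathways converge on the cleavage of C3 and end in the membrane attack complex of C5b to C9, and factor I with cofactors such as C4b-binding protein stops it on host cells. Oncostatin M is a cytokine of the interleukin-6 family, which is known to raise several acute-phase plasma proteins in hepatocytes.

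Total counts ranged from 20851489 to 35143325 per library. Levels are given as counts or as normalized CPM, which is CPM (counts scaled to a common library size) after TMM scaling over the 14 libraries, and levels of different genes are compared only per kilobase of exon. The adult liver libraries needed a TMM factor of 0.43 and 0.439 and the others 1.095 to 1.204. Every label reads replicate 1 and no label names separate cultures or animals, so p-values measure the spread between these libraries, which may be technical. Pairs of libraries differed beyond sampling noise in every condition, with a chi-square per gene of 3.05 to 3.67 in 5 conditions, 11.5 in iHEAs and 13.4 in fetal liver. The name of 1 iHEA column gives its condition but fits no single sample's labels, and it is called here the iHEA library without a number. The methods describe male adult mice, whereas the adult liver libraries held 14646 and 16368 counts of Xist and none of 4 Y-linked genes. Library 1 of 2D-iHs held 210 counts of the hepatocyte marker Alb against 9 in library 2.

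As a group, the 35 genes took 4.08% to 4.23% of all counts in adult liver, 0.356% to 0.426% in fetal liver, 0.0627% to 0.0641% in iHLOs, 0.0634% and 0.0813% in iHEAs and 0.0265% to 0.0295% in the 2D cultures. In adult liver 32 of the 35 were at their highest mean level, and the exceptions were F3 and Pros1, highest in MEFs, and Tfpi, highest in 2D-iHs. The median member stood at 0.0127% of its adult liver level in 2D cultures and 0.0457% in 3D cultures, against 4.13% in fetal liver. These shares depend on the low TMM factors of adult liver, and with scaling by total counts the medians were 0.0329%, 0.123% and 11.3%. With that scaling, too, the same 32 members were highest in adult liver. In the bulk libraries, fewer cells of a type and less RNA per cell cannot be told apart. Of the 35 genes, 18 reached 30 counts in at least 1 of the 8 iHepSC culture libraries, 16 stayed at or under 26 counts with at least 1 count, and C8b had 0 counts in all 8.

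**Figure D1:**
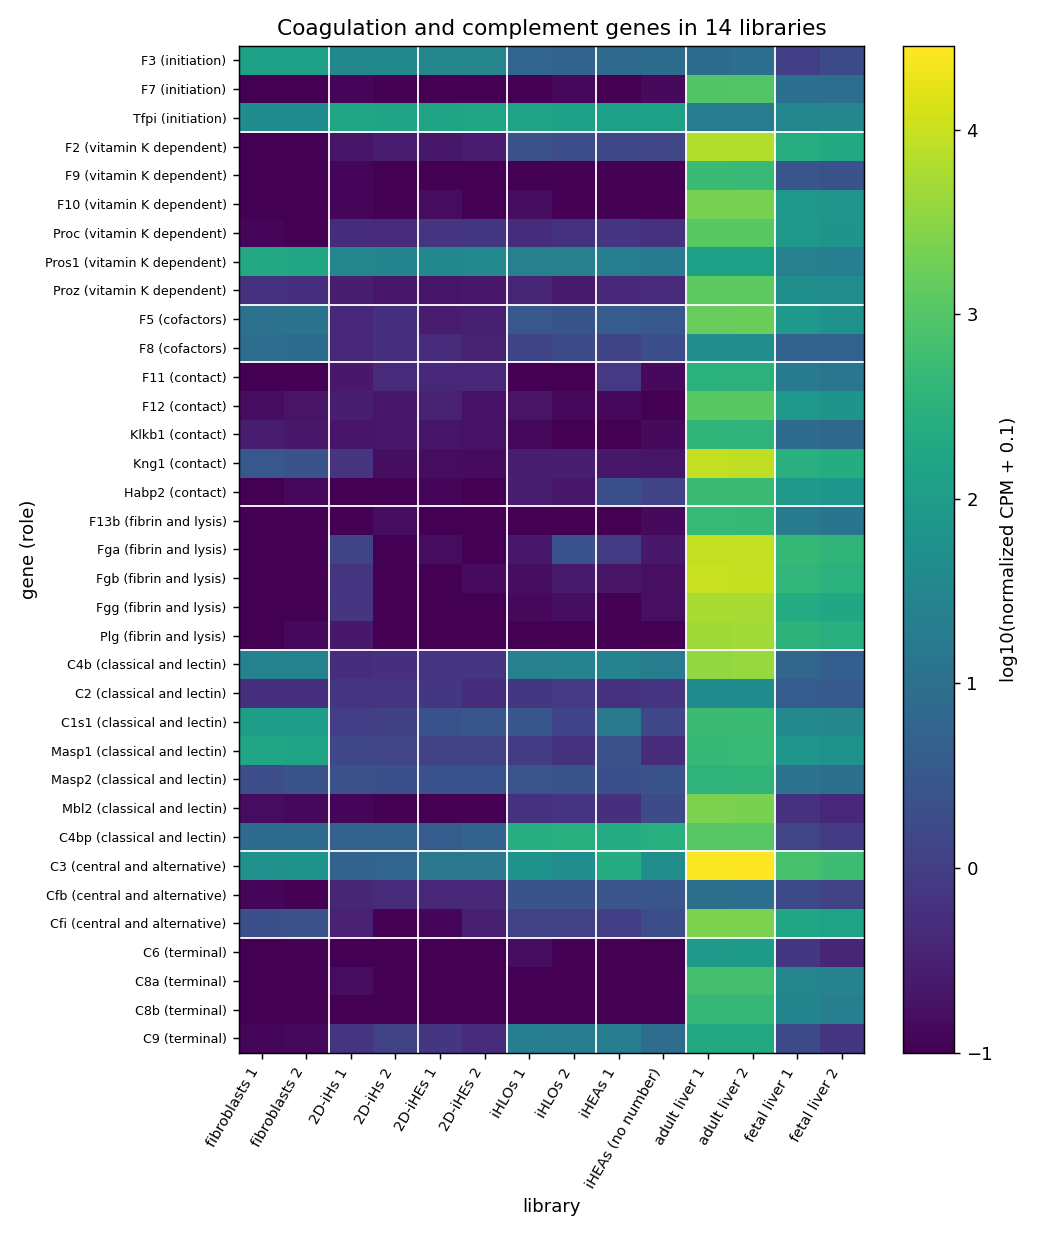
Heatmap of the 35 genes (rows, by role) in the 14 libraries (columns, 2 per condition); the color is log10 of normalized CPM plus 0.1. Adult liver is the brightest pair of columns for 32 genes, and C4bp, C4b and C9 are brighter in the 3D cultures than in the 2D cultures.

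The comparison of 3D with 2D culture asked which members differed between hydrogel spheroids and 2D cultures. Between the 4 libraries of 3D cultures and the 4 of 2D cultures, 17 members passed the filter on low counts and could be tested, and 9 were higher, 3 were lower and 5 did not pass the test. Of all 13409 genes tested, 38.7% were higher and 37.2% were lower in the same comparison. The genes that were higher were F2, F5 and F8 of coagulation and C3, C4b, C4bp, C9, Cfb and Cfi of complement, while F3, Pros1 and Tfpi were lower. All 12 called members separated the 4 libraries of 3D from the 4 of 2D with no overlap, and the share of all tested genes that did so was not counted. When the 17 remaining members with any count in these libraries were added to the tested genes, of which 38.7% were then higher and 37.1% lower, Habp2, Mbl2 and Proz were also higher and F12 and Klkb1 lower. Of these 34 members 12 (35.3%) were then higher, 5 (14.7%) lower and 17 not called, so the share that was higher was near that of all genes.

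Of the genes that start coagulation, F3 and its inhibitor Tfpi were lower in 3D and F7 was near 0. F3 encodes tissue factor, the transmembrane receptor of factor VIIa. In counts, F3 had 1237 and 1119 in 2D-iHs, 1240 and 736 in 2D-iHEs, 198 and 177 in iHLOs and 247 and 242 in the iHEA libraries. Every 3D library was thus below every 2D library, with a mean of 6.84 ± 1.40 normalized CPM in 3D against 32.7 ± 2.09 in 2D (SD, n = 4 each), and the log2 fold change was -2.22 ± 0.12 (SE, adjusted p = 1.06e-08). MEFs had the most F3, with 4582 and 3856 counts. Tfpi, the inhibitor of the tissue factor and factor VIIa complex, had 6148 and 5031 counts in 2D-iHs, 6090 and 3824 in 2D-iHEs, 4597 and 4384 in iHLOs and 3943 and 3815 in iHEAs. The decrease of Tfpi in 3D was small, from 159.5 ± 7.18 to 131.5 ± 9.03 normalized CPM (SD, n = 4; log2 fold change -0.24 ± 0.06 SE, adjusted p = 0.00184), and per kilobase Tfpi was the highest member in every 2D library group at 28.6 to 29.8 normalized CPM. F7, the protease that binds tissue factor, had at most 1 count in any culture library and 3 counts in all 8, whereas adult liver held 962 and 985 normalized CPM.

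The vitamin K-dependent proteins were mostly at trace levels in culture. F2 encodes prothrombin, the precursor of thrombin, and had 4 and 5 counts in 2D-iHs, 5 and 4 in 2D-iHEs, 71 and 61 in iHLOs and 48 and 37 in iHEAs. All 4 libraries of 3D stood above all 4 of 2D (log2 fold change 3.63 ± 0.27 SE, adjusted p = 2.26e-07), at a mean of 1.69 ± 0.39 normalized CPM (SD, n = 4) that was 0.0250% of the adult liver level (0.0670% with scaling by total counts). Pros1, which encodes protein S, the cofactor of activated protein C, was the only member of this class with at least 30 counts in every culture library. It had 1117 and 945 counts in 2D-iHs, 1401 and 884 in 2D-iHEs, 803 and 750 in iHLOs and 700 and 489 in iHEAs, and it was lower in 3D by 0.59 ± 0.10 on the log2 scale (SE, adjusted p = 0.000314). Proc, the precursor of activated protein C, ranged from 12 to 24 counts and did not pass the test (0.06 ± 0.26, adjusted p = 0.836). F9 and F10, which encode the proteases that activate factor X and prothrombin, had 1 and 5 counts in all 8 culture libraries together. Proz, the cofactor of the protein Z-dependent protease inhibitor, had 3 to 10 counts per library and was called higher in 3D only when it was added to the tested genes (log2 fold change 0.99 ± 0.37 SE, adjusted p = 0.0286).

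Both large cofactors of the cascade were higher in 3D. F5 encodes factor V, the cofactor of factor Xa, and had 11 and 14 counts in 2D-iHs, 7 and 5 in 2D-iHEs, 99 and 81 in iHLOs and 128 and 84 in iHEAs (log2 fold change 3.47 ± 0.26 SE, adjusted p = 2.18e-07). F8 encodes factor VIII, the cofactor of factor IXa, which in the body comes largely from endothelial cells. It had 11 and 14 counts in 2D-iHs, 15 and 6 in 2D-iHEs, 41 and 57 in iHLOs and 41 and 55 in iHEAs, and the log2 fold change was 2.18 ± 0.25 (SE, adjusted p = 1.02e-05). F8 in 3D stood at 3.13% of adult liver and F5 at 0.188%, or 8.42% and 0.505% with scaling by total counts. MEFs held more of both genes than any culture, with 419 and 381 counts of F5 and 334 and 261 of F8.

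Among the contact factors and fibrinogen, only Habp2 was above 10 counts in both libraries of any 3D condition and near 0 in 2D. Habp2, which encodes a plasma serine protease that binds hyaluronan and can activate factor VII, had 0 and 0 counts in 2D-iHs, 1 and 0 in 2D-iHEs, 6 and 4 in iHLOs and 70 and 34 in iHEAs. Pooled over libraries, its ratio of 3D to 2D was 118 with a 95% counting interval of 20.8 to 4707, and its exons overlap those of Nrap on the opposite strand. F11 (factor XI) had 0 to 24 counts, F12 (factor XII) 0 to 9, Klkb1 (plasma prekallikrein) 0 to 4 and Kng1 (kininogen) 1 to 22. The 24 counts of F11 and the 22 counts of Kng1 were each in 1 library, iHEA library 1 and 2D-iH library 1. Added to the tested genes, F12 fell by 1.93 ± 0.62 and Klkb1 by 2.45 ± 0.69 on the log2 scale (SE, adjusted p = 0.0141 and 0.00723), from 22 to 5 counts and from 14 to 2 counts summed over 4 libraries each.

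Fibrinogen, the soluble precursor of fibrin, is made from 3 chains whose genes lie side by side on chromosome 3 (Fgg at chr3:83007724-83015049, Fga at chr3:83026076-83033627 and Fgb at chr3:83040141-83049863, GRCm38). The sequences before their starts are shown because the 3 neighbors were high together in liver and had 0 to 73 counts in the culture libraries. They are the bases upstream of the RefSeq start site (GRCm38.p6, 5′ to 3′ in the direction of the gene), from position -250 to -78 for Fga, where the annotated GENCODE gene begins, and to -1 for Fgb and Fgg. Capitals mark matches to GTTAAT (the core of an HNF1 site), TTGCNNAA (C/EBP type), TTCNNNGAA (STAT type) or CTGGGA (interleukin-6 response type), on either strand.
Fga, plus strand, chr3:83025903-83026075: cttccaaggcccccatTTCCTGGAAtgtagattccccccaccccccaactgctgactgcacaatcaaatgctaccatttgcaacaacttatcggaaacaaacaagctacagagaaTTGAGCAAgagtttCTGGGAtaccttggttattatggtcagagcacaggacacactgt
Fgb, minus strand, chr3:83049864-83050113: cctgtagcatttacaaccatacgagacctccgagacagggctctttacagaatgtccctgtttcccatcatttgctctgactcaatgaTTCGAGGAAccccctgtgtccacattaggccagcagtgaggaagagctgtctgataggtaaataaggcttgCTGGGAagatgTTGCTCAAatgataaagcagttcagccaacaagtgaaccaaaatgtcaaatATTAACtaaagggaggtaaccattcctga
Fgg, plus strand, chr3:83007474-83007723: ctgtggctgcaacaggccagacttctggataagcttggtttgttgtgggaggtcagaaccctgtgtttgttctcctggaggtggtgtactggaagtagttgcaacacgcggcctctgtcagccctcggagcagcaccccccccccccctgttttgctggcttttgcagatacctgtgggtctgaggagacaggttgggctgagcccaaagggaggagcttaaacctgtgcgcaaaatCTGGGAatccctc
No marked matches overlapped each other. Promoter sequences were found for 27 of the 35 members, and in the 250 bases before the start GTTAAT was present in 8 of the 27 (29.6%) against 7.49% of all 27025 genes, TTGCNNAA in 9 (33.3%) against 10.8%, TTCNNNGAA in 6 (22.2%) against 8.13% and CTGGGA in 12 (44.4%) against 29.8%. TGTTTAC (FOXA type) was in 2 members (7.41% against 3.54%) and CAAAGTCCA (HNF4 type) in none (against 0.451%). These matches describe letters and were not tested.

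In adult liver the 3 chains had similar levels per kilobase of exon, at 2981 normalized CPM for Fga, 2709 for Fgg and 2545 for Fgb. In culture Fga had 43 and 0 counts in 2D-iHs, 2 and 0 in 2D-iHEs, 4 and 73 in iHLOs and 26 and 4 in iHEAs, so the higher library of each condition held most of its counts. Fgb had 22 and 0 counts in 2D-iHs and 0 to 5 in the other 6 libraries, and Fgg had 23 and 0 in 2D-iHs and 0 to 2 in the others. The 2D-iH library with these counts was library 1, which also held 5 of the 5 culture counts of Plg (plasminogen, the precursor of plasmin) and the higher count of Alb. None of the 4 genes passed the test between 3D and 2D when added (adjusted p = 0.282 for Fga, 0.521 for Fgb, 0.227 for Fgg and 0.146 for Plg). F13b, the carrier subunit of the fibrin-crosslinking factor XIII, had 3 counts in the 8 culture libraries.

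**Figure D2:**
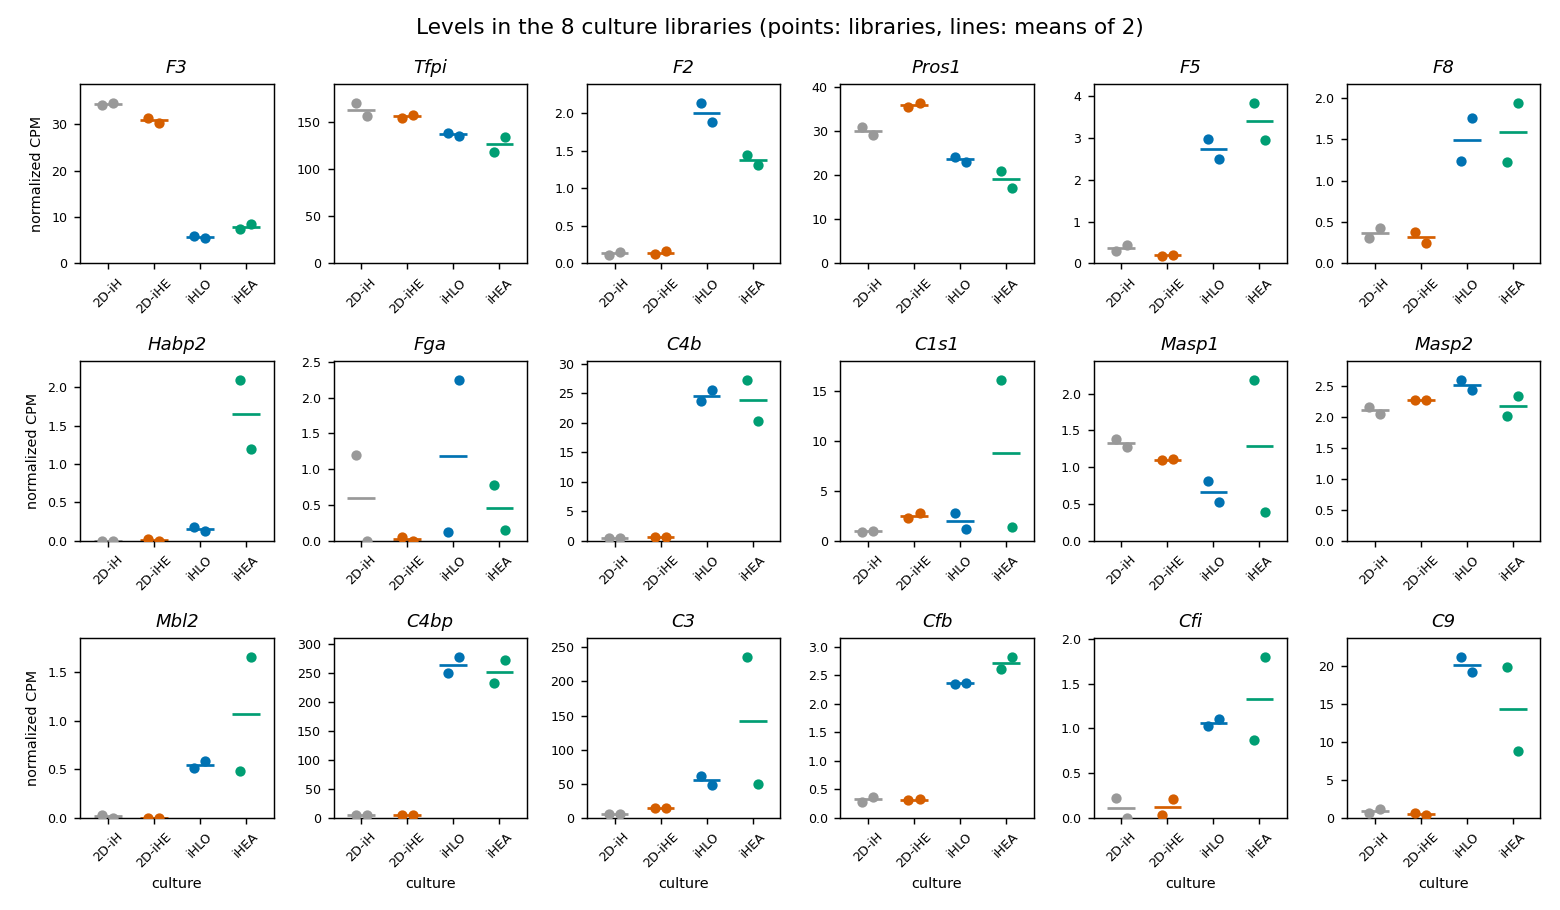
Normalized CPM (linear axes from 0) of the 18 members with at least 30 counts in a culture library, in the 2D-iH, 2D-iHE, iHLO and iHEA cultures; points are libraries and lines are means of 2. F3 falls and C4bp, C4b, C9, Cfb, F2 and F5 rise from 2D to 3D with no overlap, while C3, C1s1, Masp1 and Mbl2 have iHEA libraries far apart.

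Among the 17 members that passed the filter, the largest differences between 3D and 2D were in the complement genes C4bp, C4b and C9. C4bp encodes the alpha chain of C4b-binding protein, a plasma inhibitor of the classical and lectin pathways, and had 187 and 156 counts in 2D-iHs, 150 and 122 in 2D-iHEs, 8328 and 9019 in iHLOs and 7735 and 7732 in iHEAs. The level rose from 4.71 ± 0.62 to 258 ± 21.1 normalized CPM (SD, n = 4), which was a log2 fold change of 5.83 ± 0.10 (SE, adjusted p = 5.19e-12). The 3D level was 23.9% of adult liver with TMM and 64.3% with scaling by total counts, and fetal liver had 44 and 26 counts. C4b, which encodes complement component 4, had 15 and 14 counts in 2D-iHs, 22 and 14 in 2D-iHEs, 788 and 827 in iHLOs and 908 and 576 in iHEAs (log2 fold change 5.65 ± 0.14 SE, adjusted p = 3.47e-11). MEFs held 923 and 757 counts of C4b, so its 3D level of 24.2 ± 2.94 normalized CPM was close to the 24.5 ± 0.37 of MEFs. C4b and its near-identical neighbor C4a may share reads, and C4a rose by 0.95 ± 0.12 on the log2 scale (SE, adjusted p = 1.44e-05). C4b has no entry in the promoter table used here.

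C9, the pore-forming subunit of the membrane attack complex, had 22 and 35 counts in 2D-iHs, 25 and 9 in 2D-iHEs, 705 and 624 in iHLOs and 664 and 249 in iHEAs. Its log2 fold change in 3D was 4.69 ± 0.33 (SE, adjusted p = 1.36e-07), its 3D level was 8.59% of adult liver (23.0% with scaling by total counts), and fetal liver had 50 and 19 counts. Of the other members of the membrane attack complex, C6 had 2 counts, C8a had 2 and C8b had 0 in all 8 culture libraries together. At this depth the level of C8b in adult liver was at least 36790-fold higher than in the pooled cultures, for which 3 counts were taken as the floor. Hc, C7 and C8g, the genes of C5, of C7 and of the gamma chain of C8, are outside the 35 genes and were named after their values were seen. C7 was under the filter and not tested, with 1, 1, 0 and 0 counts in the 2D libraries and 9, 3, 3 and 1 in the 3D libraries. C8g had 48 to 112 counts in 2D and 100 to 150 in 3D and was higher (0.52 ± 0.16, adjusted p = 0.011), and Hc rose by 1.21 ± 0.09 on the log2 scale (adjusted p = 1.76e-07; 128 to 192 counts in 2D and 302 to 407 in 3D).

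The upstream sequences of C4bp and C9 are shown because both genes rose in 3D well above their fetal liver levels while the fibrinogen genes were not called, in the same way and with the same capitals, up to the start of the annotated GENCODE gene (positions -250 to -15 for C4bp and -250 to -20 for C9).
C4bp, minus strand, chr1:130661633-130661868: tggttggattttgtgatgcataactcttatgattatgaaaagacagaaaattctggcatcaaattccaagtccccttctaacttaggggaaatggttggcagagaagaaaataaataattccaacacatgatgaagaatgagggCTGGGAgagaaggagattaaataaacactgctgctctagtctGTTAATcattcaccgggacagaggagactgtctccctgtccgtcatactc
C9, plus strand, chr15:6445096-6445326: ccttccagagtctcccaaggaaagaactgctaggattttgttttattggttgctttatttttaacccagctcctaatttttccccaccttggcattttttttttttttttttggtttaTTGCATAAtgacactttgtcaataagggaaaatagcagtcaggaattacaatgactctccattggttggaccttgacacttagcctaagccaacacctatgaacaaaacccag
C4bp held 1 match to GTTAAT and 1 to CTGGGA in these bases, and C9 held 1 to TTGCNNAA.

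C3, the central component whose cleavage all pathways share, had 192 and 189 counts in 2D-iHs, 563 and 352 in 2D-iHEs, 2045 and 1564 in iHLOs and 7868 and 1393 in the iHEA libraries. All 3D libraries were above all 2D libraries, and the log2 fold change was 3.35 ± 0.58 (SE, adjusted p = 0.000264). Library 1 of iHEAs decided the size, since C3 rose by 2.46 on the log2 scale without it (adjusted p = 2.35e-05). Cfb, which encodes factor B, the catalytic partner of C3b in the alternative pathway, had 10 and 12 counts in 2D-iHs, 12 and 8 in 2D-iHEs, 78 and 77 in iHLOs and 87 and 80 in iHEAs (log2 fold change 3.02 ± 0.18 SE, adjusted p = 3.68e-08). At 2.54 ± 0.22 normalized CPM its 3D level was 26.0% of adult liver with TMM and 69.9% with scaling by total counts, in both the highest share among the members that rose. Cfi, which encodes factor I, the protease that inactivates C3b and C4b, had 8 and 0 counts in 2D-iHs, 1 and 5 in 2D-iHEs, 34 and 36 in iHLOs and 29 and 51 in iHEAs (3.47 ± 0.55, adjusted p = 0.000127). Exons of Cfb and C2 overlap those of the read-through gene model Gm20547, so reads between them could be left uncounted.

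Of the recognition and protease genes of the classical and lectin pathways Mbl2 was higher in 3D, and C2, C1s1, Masp1 and Masp2 were not called. Mbl2, a mannose-binding lectin, had 1 and 0 counts in 2D-iHs, 0 and 0 in 2D-iHEs, 17 and 19 in iHLOs and 16 and 47 in iHEAs, and its pooled ratio of 3D to 2D was 103 with a 95% counting interval of 18.0 to 4093. Added to the tested genes it was higher in 3D (log2 fold change 6.16 ± 0.87 SE, adjusted p = 4.96e-05), at 0.0345% of adult liver (0.0934% with scaling by total counts). C1s1, a protease of the C1 complex, had 32 and 31 counts in 2D-iHs, 90 and 66 in 2D-iHEs, 93 and 37 in iHLOs and 538 and 39 in iHEAs, with overlapping groups and no call (1.71 ± 0.79, adjusted p = 0.0683). Without iHEA library 1 the value of C1s1 was 0.12 (adjusted p = 0.809). It was called higher with no filter (adjusted p = 0.0348), with 1 term per condition (0.0313), without iHLO library 2 (0.0268) and without the iHEA library of no number (0.0354), and reads of C1s1 may be shared with its paralog C1s2. Masp1, a protease of the lectin pathway, had 50 and 41 counts in 2D-iHs, 43 and 27 in 2D-iHEs, 27 and 17 in iHLOs and 73 and 11 in iHEAs (-0.26 ± 0.43, adjusted p = 0.596), and without iHEA library 1 it was called lower at -1.01 (adjusted p = 0.00416). Masp2, which cleaves C4 and C2, had 78 and 66 counts in 2D-iHs, 89 and 55 in 2D-iHEs, 86 and 79 in iHLOs and 67 and 66 in iHEAs (0.14 ± 0.13, adjusted p = 0.361), and its exons overlap those of Tardbp on the opposite strand. C2, the substrate of these proteases, ranged from 10 to 26 counts (0.16 ± 0.22, adjusted p = 0.561).

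Other genes of both systems changed in mixed directions, where 38.7% of all tested genes were higher and 37.2% lower in 3D. Of 32 further coagulation genes 18 were tested, and 8 were higher and 10 lower in 3D (median log2 fold change -0.19, against 0.01 over all tested genes). The 4 largest increases were Serping1, the C1 inhibitor, which rose from 0 to 7 counts in 2D to 142 to 216 in 3D (log2 fold change 6.42 ± 0.49 SE), Vwf, the von Willebrand factor gene (4.82 ± 0.26), F2rl1, a protease-activated receptor (1.05 ± 0.11), and Vkorc1, the vitamin K epoxide reductase (0.82 ± 0.22). Large decreases were those of Thbd, thrombomodulin (-4.72 ± 0.28), Plau, urokinase (-3.49 ± 0.23), and F2r, the thrombin receptor (-2.76 ± 0.07). Of 32 further complement genes 12 were tested, and 8 were higher and 1 lower (median log2 fold change 1.08). Clu, clusterin, rose by 3.61 ± 0.13, C1ra by 2.38 ± 0.29 and C1rl by 1.44 ± 0.31, while Cd55, the decay-accelerating factor, fell by 1.84 ± 0.07 (SE, adjusted p from 4.32e-10 to 0.00131 for these 4 genes). Clu had 195871 to 234630 counts in the 3D libraries, above the 35323 and 38466 of adult liver.

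Markers of cell types were read beside the members. The summed level of 6 endothelial markers, which include Vwf, was 407 to 482 normalized CPM in 2D, 1214 to 1351 in iHLOs and 868 to 942 in iHEAs, so it was highest in the organoids that received no iECs, and Kdr was at 0 in iHEAs. The 7 hepatocyte markers summed to 282 to 320 normalized CPM in 2D and 283 to 396 in 3D, against 549300 and 587000 in adult liver. Most of the culture sum was Apoa1, with 6803 to 12149 counts in 2D and 5697 to 10188 in 3D. Serpina1a was at 0 in every 3D library, and Cps1 had 1 to 17 counts in 2D and 2 to 4 in 3D. Cyp3a11 had 0 to 7 and 0 to 1. Ttr and Tat were higher by 5.37 ± 0.13 and 4.98 ± 1.02 on the log2 scale, and Alb was not called (-2.20 ± 1.20, adjusted p = 0.115). Tat had 538 counts in iHEA library 1 and 43 to 71 in the other 3D libraries. The 6 macrophage markers summed to 18.6 to 24.1 normalized CPM in all cultures with Marco at 0, and 6 fibroblast markers, at 22470 to 23760 in MEFs, summed to 2.68 to 12.4. The 4 cholangiocyte markers summed to 1043 to 1315 normalized CPM in 2D and 1173 to 1470 in 3D, against 27.9 to 29.9 in adult liver. Among them Epcam had 271 to 491 counts in 2D and 6900 to 9732 in 3D, whereas Sox9 had 136 to 279 and 31 to 163. Krt7 had 8732 to 15114 counts in 2D and 11788 to 14388 in 3D, and Krt19 had 16159 to 31981 and 19412 to 24570. The 4 megakaryocyte markers summed to 2.38 to 2.76 normalized CPM in 2D and 5.63 to 7.47 in 3D. The part of these cell markers in the changes of the members was not tested.

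**Figure D3:**
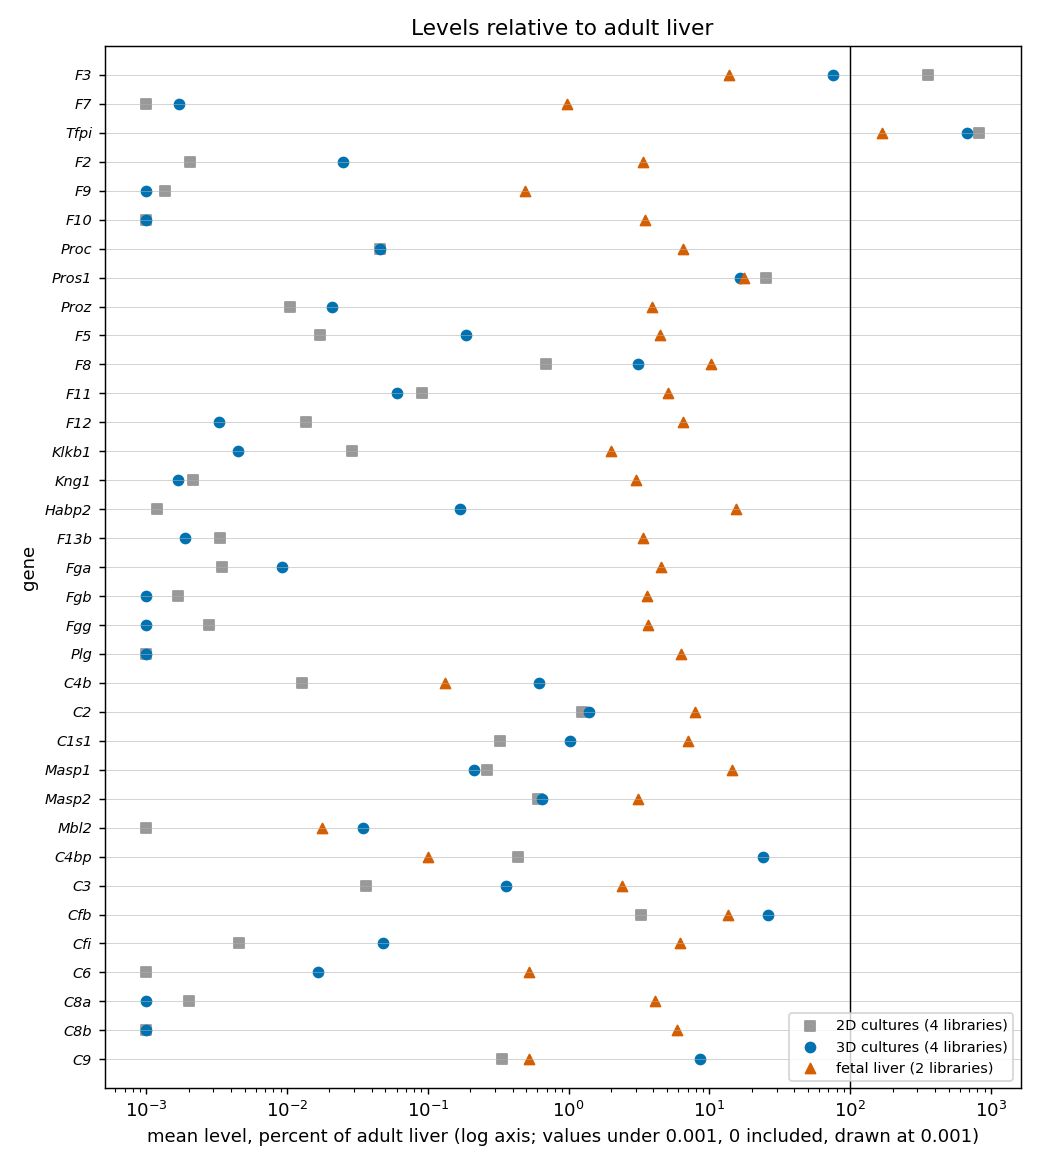
Mean level of each member in 2D cultures (4 libraries), 3D cultures (4 libraries) and fetal liver (2 libraries) as percent of its adult liver level, on a log axis with values under 0.001 drawn at 0.001. Tfpi is at 676% in 3D and 820% in 2D, C4bp moves from 0.436% to 23.9%, and 20 of the 35 members stay under 0.1% in 3D; levels are scaled with TMM, and with scaling by total counts C4bp in 3D is at 64.3%, 17 members are under 0.1% and F3 in 3D is above adult liver, at 202%.

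The 12 members called between 3D and 2D had the same direction with and without iECs, while Masp1, Proc and Masp2, which were not called in either setting, had opposite signs. iHLOs against 2D-iHs had 9 members higher and 3 lower of 17 (36.9% and 35.3% of all genes), and iHEAs against 2D-iHEs had 10 higher and 3 lower (36% and 34.9%), with the same 9 and 3 genes called in both. The call of Tfpi in iHLOs (-0.21 ± 0.07, adjusted p = 0.0137) was lost without 2D-iH library 1 (-0.16, adjusted p = 0.105) and without iHLO library 2 (-0.19, adjusted p = 0.0874). F11, when added to the tested genes, was called lower in iHLOs, with 0 counts against 16 in 2D-iHs (adjusted p = 0.0242), and not in iHEAs, with 25 against 21 in 2D-iHEs, and the difference did not pass the test (adjusted p = 0.216). With the members added 36.9% and 35.9% of all genes were higher and 35.3% and 34.9% lower in these comparisons. C1s1 was called in iHEAs and not in iHLOs (1.14 ± 0.94, adjusted p = 0.29), and the difference did not pass the test (0.72 ± 1.20, adjusted p = 0.843). In iHLOs C1s1 was called higher and Masp1 lower when either iHEA library was left out of the shared fit (C1s1 1.15, adjusted p = 0.00262 and 0.00196; Masp1 -0.93, adjusted p = 0.00592 and 0.00542). Among the 12 members called in both settings F5 differed most between them, at 2.94 ± 0.29 in iHLOs and 4.18 ± 0.33 in iHEAs (SE), and the difference did not pass the test (1.24 ± 0.50, adjusted p = 0.253). The value of C1s1 was 1.87 ± 0.71 with overlapping libraries (SE, adjusted p = 0.0311). The call was lost without either 2D-iHE library (adjusted p = 0.173 and 0.0997), and without iHEA library 1 the value was -0.80 (adjusted p = 0.0677). Masp1, which was not called, was lower in iHEAs without library 1 at -1.44 (adjusted p = 0.00639) and higher without the library of no number at 1.01 (adjusted p = 0.00383).

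Few members differed when iECs were added. Between iHEAs and iHLOs 1 of the 17 tested members was called, F3, which was higher in iHEAs (log2 fold change 0.48 ± 0.10 SE, adjusted p = 0.0318), where 1.19% of all genes were higher and 1.07% lower. The other 16 tested members had adjusted p-values of 0.0984 or more, and Pros1 was the nearest at -0.29 ± 0.08. These values depended on the iHEA library: without the library of no number C3 was 2.10 (adjusted p = 5.36e-14), C1s1 3.02 (adjusted p = 6.89e-09), Masp1 1.70 (adjusted p = 0.00123) and Tfpi -0.21 (adjusted p = 0.0395). Without library 1 C3 was -0.14 (adjusted p = 0.517), C9 was -1.18 (adjusted p = 6.55e-06) and Pros1 -0.43 (adjusted p = 0.00441). The call of F3 was lost when any library but iHEA library 1 was left out (adjusted p = 0.0577 to 0.236). Habp2, under the filter, had 70 and 34 counts in iHEAs against 6 and 4 in iHLOs, a pooled ratio of 11.1 with a 95% counting interval of 5.79 to 23.8, and when added to the tested genes it was higher by 3.42 ± 0.46 on the log2 scale (SE, adjusted p = 0.00263). In 2D, 1 member of 17 was called, Pros1, higher in 2D-iHEs by 0.28 ± 0.08 (SE, adjusted p = 0.0399), where 4.26% of all genes were higher and 3.92% lower. With TMM 52.1% of all calls in this comparison were higher, against 64.6% with scaling by total counts. This call of Pros1 was lost when any library of 2D-iHs, 2D-iHEs or iHLOs was left out (adjusted p = 0.0678 to 0.217). C3 had 563 and 352 counts in 2D-iHEs against 192 and 189 in 2D-iHs, at 14.4 ± 0.16 and 5.58 ± 0.38 normalized CPM (SD, n = 2), with no call (1.39 ± 0.69, adjusted p = 0.263), and it was called when either iHEA library was left out of the shared fit (adjusted p = 3.92e-08 and 5.22e-08). C1s1, with 90 and 66 counts against 32 and 31, was likewise not called (1.45 ± 0.92, adjusted p = 0.396) and was called in those fits (adjusted p = 0.0025 and 0.00184).

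The effect of iECs in 3D minus that in 2D was positive for F3 (0.61 ± 0.13, adjusted p = 0.0203) and negative for Pros1 (-0.58 ± 0.11, adjusted p = 0.0159), and no other of the 17 tested members passed, where 1.52% of all genes were higher and 1.62% lower. F3 changed with iECs by -0.13 ± 0.07 in 2D and 0.48 ± 0.10 in 3D, whereas Pros1 changed by 0.28 ± 0.08 and -0.29 ± 0.08 (SE). Both calls were lost when any library of 2D-iHs, 2D-iHEs or iHLOs was left out (adjusted p = 0.0527 to 0.112). For C3 the sign depended on which iHEA library was used, at -1.53 without library 1 (adjusted p = 1.18e-06) and 0.71 without the library of no number (adjusted p = 0.00684), against -0.01 ± 0.77 with both.

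The 2 iHEA libraries differed by more than 2-fold in 6 of the 17 members with at least 30 counts in either and a count in both, with a median ratio of 1.34 between libraries and the largest ratio for C1s1 at 11.7. In iHLOs 2 of 15 members differed by more than 2-fold (median ratio 1.10), with the largest ratio for Fga at 18.7, and in 2D-iHs, 2D-iHEs, MEFs and adult liver none of those with a count in both did. Fga in 2D-iHs, with 43 and 0 counts, has no such ratio. C3 had 236 normalized CPM in iHEA library 1 and 49.1 in the library without a number, and Masp1 had 2.19 and 0.388. In the opposite direction Mbl2 had 0.48 and 1.66, and Cfi had 0.869 and 1.80. Library 1 also held 538 counts of the hepatocyte marker Tat against 62 in the other, and the part of this difference in the members was not tested. C4bp, F2, F3, Cfb, Tfpi and Masp2 differed by 1.08- to 1.18-fold between the iHEA libraries.

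**Figure D4:**
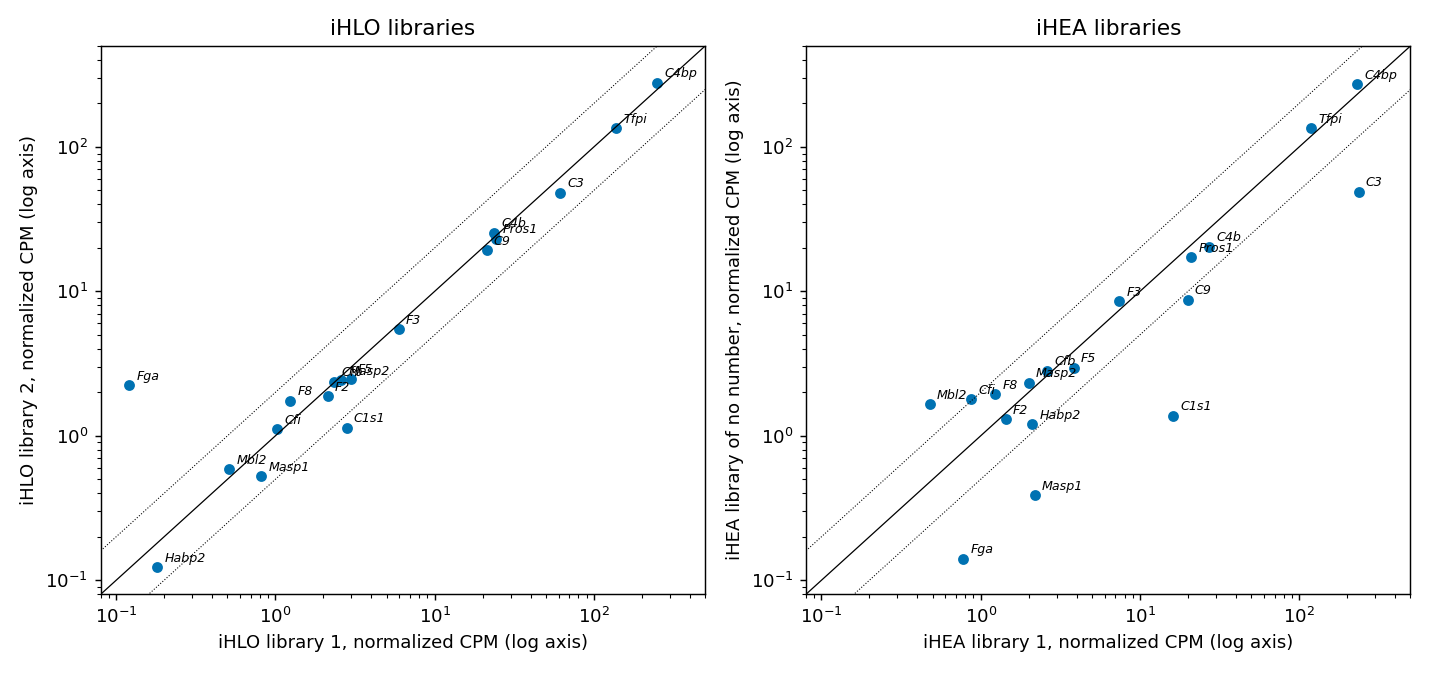
Normalized CPM of members in the 2 libraries of iHLOs (left) and of iHEAs (right), on log axes, for members with at least 30 counts in a culture library and a count in both; the solid line is equality and the dotted lines are 2-fold. In iHEAs C1s1, C3, Masp1, Fga and C9 lie below the band and Mbl2 and Cfi above it.

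The comparison of 2D-iHs with MEFs set converted cells beside fibroblasts. The methods give MEFs the MEF medium and 2D-iHs the iHEA medium with oncostatin M, so conversion and medium cannot be told apart. In the fit of all 14 libraries 9 of 35 members were higher and 12 lower in 2D-iHs than in MEFs, where 42.3% of all genes were higher and 36.1% lower. The genes that fell included C1s1 (4253 and 3392 counts in MEFs, 32 and 31 in 2D-iHs; log2 fold change -6.91 ± 0.58 SE), Masp1 (6027 and 4747 counts in MEFs; -6.88 ± 0.21), C4b (-5.84 ± 0.24), F5 (-4.99 ± 0.26), F8 (-4.55 ± 0.24), C3 (-3.41 ± 0.51), Pros1 (-2.69 ± 0.08) and F3 (-1.84 ± 0.08). Tfpi rose by 1.90 ± 0.07 from 1686 and 1315 counts in MEFs, and Cfb, C9, Proc, F2 and F11 rose from 0 or 1 count per MEF library to 4 to 35 per 2D-iH library. The call of F11 was lost without either MEF library (adjusted p = 0.1 and 0.0781) and without 2D-iH library 2 (0.123). The calls for Fga, Fgb and Fgg rested on 2D-iH library 1 alone, and library 2 had 0 counts of each. Masp2 did not pass the test, at 68 and 73 counts in MEFs (0.03 ± 0.16, adjusted p = 0.89).

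Adult liver exceeded fetal liver for 34 of the 35 members, where 37.9% of all genes were higher and 43.2% lower, and Tfpi was lower (-0.76 ± 0.09, adjusted p = 4.38e-07). The 3 largest differences were in the complement genes Mbl2, C4bp and C4b. Mbl2 had 17 and 10 counts in fetal liver and 35524 and 35107 in adult liver (log2 fold change 12.43 ± 0.21 SE), followed by C4bp at 9.95 ± 0.15 and C4b at 9.55 ± 0.16, and then by F9 at 7.67 ± 0.10, C9 at 7.54 ± 0.31 and C6 at 7.54 ± 0.22. Pros1 (2.50 ± 0.08), Habp2 (2.69 ± 0.09), Masp1 (2.79 ± 0.14), F3 (2.87 ± 0.18) and Cfb (2.88 ± 0.22) differed least among the genes that were higher. Markers of blood cells differed between these tissues as well, with 4 erythroid markers at 15400 to 15650 normalized CPM in fetal and 259 to 285 in adult liver and 4 megakaryocyte markers at 297 to 364 and 14.4 to 15.6, and their part in the members' differences was not tested. Per kilobase C3 was the most abundant member in adult liver at 5342 normalized CPM, ahead of Fga at 2981, Kng1 at 2717, Fgg at 2709 and Fgb at 2545, whereas in fetal liver Fga came first at 136 and C3 was at 127. With scaling by total counts the median log2 fold change of all genes was -1.60, against -0.15 with TMM, and 18.1% of all calls were higher, against 46.7%.

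The comparison of iHLOs with adult liver used the same adult libraries as that with fetal liver. iHLOs were below adult liver for 34 of the 35 members, where 42.6% of all genes were higher and 38.7% lower, and Tfpi was higher (2.81 ± 0.08, adjusted p = 5.39e-15). The smallest shortfalls were F3 (-0.68 ± 0.14), C4bp (-2.03 ± 0.09), Cfb (-2.05 ± 0.21), Pros1 (-2.47 ± 0.08) and C9 (-3.31 ± 0.21). With scaling by total counts, which moves the median of all genes to 1.49 from 0.09 and the share of all calls that are higher to 76.3% from 52.4%, F3 turned to 0.73 above adult liver (adjusted p = 0.00013). The mean level in 3D cultures lay above that of fetal liver for 7 members, F3, Tfpi, C4b, C9, Cfb, Mbl2 and C4bp, and the largest gap was in C4bp, at 258 ± 21.1 normalized CPM in 3D (SD, n = 4) against 1.08 ± 0.32 in fetal liver (SD, n = 2). For C9 these levels were 17.3 ± 5.72 and 1.05 ± 0.61, and for C4b 24.2 ± 2.94 and 5.17 ± 1.52. The difference between 3D cultures and fetal liver was not tested.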

How the data were processed

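RNA-seq libraries were sequenced as paired-end reads and the deposited values were raw counts per gene; the authors made these counts by trimming with Trimmomatic 0.36 (per the submitters' processing notes), aligning to mm10 (GRCm38) with HISAT2 and counting with HTSeq, and Cufflinks is also named. Versions of the other tools, the strand setting, the treatment of multi-mapped reads and the annotation release are not given in the sources used here. Counts were tested as deposited with the quasi-likelihood test of edgeR 4.0.16 in R 4.3.3, with TMM scaling and Benjamini-Hochberg adjustment over all tested genes at a threshold of 0.05. The 6 comparisons among cultures used the 8 culture libraries and tested genes whose log2(count + 1) averaged 3 or more, and the 3 with MEFs or liver used all 14 libraries and genes with a mean count of at least 5. Fits were also tested on simulated data that used 1 common spread for all genes. DESeq2 1.42.0 was an alternative.

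The 35 members, the other gene lists and the markers were chosen with earlier results of these data known. Members with at least 30 counts in a culture library are given in every culture library and the others by range; of the other lists, the 4 largest called changes in each direction are named, except for items not reported here. Ratios with 1 to 3 counts in a group carry a 95% interval, a group at 0 was set to 3 counts over the group, and these intervals and floors cover counting error only. Gene coordinates, exon lengths and overlaps came from GENCODE M21 and promoters from RefSeq, which held 27 of the 35 members. Same-numbered libraries of different conditions had correlations of -0.168 to 0.158 between their deviations, so the numbers were not used to pair libraries.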

Additional observations from a re-analysis of the deposited data

Results flagged for a closer look

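Within the 4 libraries of 2D or of 3D culture, 5 of 28 groups tested by Dixon's criterion held 1 library far from the others, where chance gives about 1 in 20. These were Fga in 2D-iH library 1 (1.19 normalized CPM), C3 in iHEA library 1 (235.8), C1s1 in iHEA library 1 (16.1), C9 in the iHEA library without a number (8.78) and Mbl2 in the same library (1.66). The effect of iECs in 3D minus that in 2D passed the test for F3 (0.61 on the log2 scale) and for Pros1 (-0.58).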

How the results depend on the processing

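The 3D against 2D count of 12 members was 12 to 13 when 1 library was left out and 7 with a filter of a mean log2(count + 1) of at least 5. For iHLOs against 2D-iHs it was 12, with a range of 11 to 14 on leaving out a library, 19 with no filter and 7 with the stricter filter. For iHEAs against 2D-iHEs it was 13, with 12 to 14 and 8. The stricter filter tested 10 members and no filter 34, against 17. For these filters and for fits without a library, the shares of all genes called were not counted. For iHEAs against iHLOs the count of 1 became 8 with no filter, 2 with the members under the filter added, 3 without 2D-iH library 1 and iHEA library 1 together and 0 to 4 without 1 library. For 2D-iHEs against 2D-iHs the count of 1 became 7 with no filter, 0 with DESeq2's Wald test, 0 with all 14 libraries in the fit, 3 with only the 4 libraries compared, 3 without those same libraries together and 0 to 3 without 1 library. The 2 members called for the difference of iEC effects became 4 with no filter and 0 to 5 without 1 library. On leaving out a library, 17 to 20 members were called for 2D-iHs against MEFs, and 35 for both comparisons with adult liver.

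With the replicate block over 7 numbered culture libraries, without the iHEA library of no number, the counts were 4 for iHEAs against iHLOs, 3 for 2D-iHEs against 2D-iHs and 5 for the difference of iEC effects, where C3 became 0.65. The numbers do not pair the libraries.

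Of 2880 values of single members under alternatives, 2742 kept direction and call and 8 reversed. Without iHEA library 1, C1s1 and Masp1 in iHEAs against 2D-iHEs were -0.80 and -1.44 (without 2D-iH library 1 as well, -0.80 and -1.45) and the difference of iEC effects for C1s1 was -1.94. For C3 this difference was -1.53. Without the iHEA library of no number it was 0.71 for C3 and 1.58 for C1s1, and C1s1 and Masp1 in iHEAs against 2D-iHEs were 2.73 and 1.01. With total counts, chosen after seeing the data like the joint omission and the added members, F3 in iHLOs against adult liver was 0.73. The cause was not tested. Depth limits the 17 members under 30 counts in every culture library.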
